A study of Mus musculus with 4 samples.

Results

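The 77 genes described here are named as proteins of the mitochondrial ribosome. They are the rows of the deposited table whose symbol is Mrpl or Mrps followed by a number and, in some, a letter, and they make up 77 of 34745 gene rows. By symbol 48 belong to the large subunit (Mrpl) and 29 to the small subunit (Mrps), and all 77 passed the filter on low counts. The symbols follow the protein family, not the place of the protein. Mrps30 and Mrps18a are found in the large subunit of the mammalian ribosome, and Mrps36 is now known as a subunit of the 2-oxoglutarate dehydrogenase complex. Mrpl58 is listed under the older symbol Ict1 and so lies outside the 77.

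Mitochondria carry their own ribosomes, which make the few inner-membrane proteins of the respiratory chain and ATP synthase that mitochondrial DNA encodes. The ribosomal RNAs come from mitochondrial DNA, whereas all the ribosomal proteins are encoded in the nucleus, made in the cytosol and imported. Many of them descend from bacterial ribosomal proteins, and others are additions found only in mitochondria. Activated T cells build up mitochondria as they grow and divide, and mitochondrial translation is needed for that growth.

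RNA was sequenced from T helper 17 (Th17) cells, the CD4+ subset that makes interleukin 17. Naive CD4+ T cells from C57BL/6 spleens had been cultured in Th17 polarizing medium for 3 days. The compared groups were 2 libraries from mice of the genotype Setd2-CD4 cre, numbered 22 and 24, and 2 from wild-type (WT) mice, numbered 13 and 15 after their titles. The library titled 15 carries another number in its cell type label. Setd2 encodes the methyltransferase that trimethylates lysine 36 of histone H3. Cre driven by Cd4 sequences acts from the thymus onward in CD4+ and CD8+ T cells alike. The sources used here do not give the altered exons, the ages and sexes of the animals or whether animals were pooled.

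Libraries held 11007343 and 11322621 counts in Setd2-CD4 cre and 12518415 and 12414098 in WT, of which the 77 genes took 0.239% and 0.208% in Setd2-CD4 cre and 0.220% and 0.225% in WT. The lowest count of any of the 77 in any library was 28. Values per gene are CPM, counts scaled to a library of 1e6 with TMM factors. Levels of single genes are set side by side only as the deposited FPKM, which is per length. The lengths used for it were not checked. Sums over genes are in CPM, not corrected for length, and the large-to-small ratio is given in both units. Setd2 itself stood at 144 and 153 CPM in Setd2-CD4 cre against 183 and 176 CPM in WT (log2 fold change -0.28 with an SE of 0.10), and did not pass (edgeR adjusted p = 0.0748). It passed as lower with upper-quartile factors (-0.39), library totals (-0.43), cyclic loess (-0.44) and limma-trend on FPKM (-0.38), and without Setd2-CD4 cre 24 (-0.32). These sums over the whole gene do not show whether single exons were lost. The Th17 label was met by Il17a transcripts in all 4 libraries, at 570 and 586 CPM in Setd2-CD4 cre and 162 and 202 CPM in WT. Of 12 markers of CD4 T and Th17 cells, 5 were higher and 3 lower, and those lower were T cell receptor genes, Cd3g (-0.94, kept without any single library), Trac (-0.57) and Cd3e (-0.48), the last 2 calls lost without either WT library. Of all tested genes 16.2% were higher and 14.5% lower. Markers of other cells were also present. Of 12 B cell markers, 9 were higher in Setd2-CD4 cre and none lower, and their summed level was 732 and 513 CPM in Setd2-CD4 cre against 258 and 216 CPM in WT. Of 6 tested CD8 T and NK cell markers 2 were higher, with sums of 202 and 111 CPM in Setd2-CD4 cre against 83.2 and 99.8 CPM in WT. Of 6 tested myeloid and dendritic markers 1 was higher, with sums of 53.5 and 40.9 CPM in Setd2-CD4 cre against 42.8 and 42.2 CPM in WT. No B cell marker was at 0 in any library, while Adgre1 and Xcr1 had no count in Setd2-CD4 cre. The part of these cells in the results that follow was not tested.

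The promoters of 4 of the genes that differed between the genotypes are shown first, because their levels are described below and they carry the sequence motifs counted below. Each run is the RefSeq window in GRCm38.p6 from 250 bases before to 50 bases after a transcription start, 5′ to 3′ on the strand of the gene. Capitals mark matches to the core of the NRF1 site (gcatgcgc, or its reverse complement gcgcatgc, which can overlap) in Mrpl9 and Mrpl32, and to the core bound by ETS factors such as GABP (ccggaag, or its reverse complement cttccgg) in Mrpl3 and Mrps23. NRF1 and GABP are known regulators of nuclear genes for mitochondrial proteins. The windows lie at chr3:94443086-94443385 on the plus strand (Mrpl9), chr13:14612988-14613287 on the minus strand (Mrpl32), chr9:105053018-105053317 on the plus strand (Mrpl3) and chr11:88204138-88204437 on the plus strand (Mrps23).
Mrpl9: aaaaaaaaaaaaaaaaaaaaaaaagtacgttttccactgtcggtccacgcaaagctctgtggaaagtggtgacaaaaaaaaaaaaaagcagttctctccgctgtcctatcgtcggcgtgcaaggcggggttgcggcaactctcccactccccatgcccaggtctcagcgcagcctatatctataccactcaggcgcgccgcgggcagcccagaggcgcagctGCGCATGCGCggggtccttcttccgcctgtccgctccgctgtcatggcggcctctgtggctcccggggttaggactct
Mrpl32: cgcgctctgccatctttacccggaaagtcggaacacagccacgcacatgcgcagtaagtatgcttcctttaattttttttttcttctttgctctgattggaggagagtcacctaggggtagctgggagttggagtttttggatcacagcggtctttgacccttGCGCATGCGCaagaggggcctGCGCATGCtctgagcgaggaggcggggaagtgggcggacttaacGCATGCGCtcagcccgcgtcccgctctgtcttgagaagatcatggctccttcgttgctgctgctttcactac
Mrpl3: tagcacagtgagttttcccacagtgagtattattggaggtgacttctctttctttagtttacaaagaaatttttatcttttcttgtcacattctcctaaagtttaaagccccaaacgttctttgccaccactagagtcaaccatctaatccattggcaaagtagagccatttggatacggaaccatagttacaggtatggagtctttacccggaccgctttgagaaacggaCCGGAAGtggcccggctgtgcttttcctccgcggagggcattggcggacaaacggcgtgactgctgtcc
Mrps23: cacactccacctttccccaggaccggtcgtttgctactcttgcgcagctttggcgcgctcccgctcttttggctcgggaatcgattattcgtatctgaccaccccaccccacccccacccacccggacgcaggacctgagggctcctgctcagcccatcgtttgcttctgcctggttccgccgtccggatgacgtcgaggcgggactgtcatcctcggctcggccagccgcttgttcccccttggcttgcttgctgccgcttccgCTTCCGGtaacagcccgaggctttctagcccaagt

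Of the 77 genes, 68 had such windows, 74 windows in all. The ETS core, searched on both strands, was found in 33.8% of these 74 windows, against 17.8% of the 11933 windows of all tested genes and 8.86% of all 32851 windows. A core of the YY1 site (AANATGGCG, where N is any base) was found in 13.5% of the windows of the 77 genes, against 5.04% of those of tested genes and 2.38% of all windows. The NRF1 core was found in 10.8% of the windows of the 77 genes, against 5.25% of those of tested genes and 2.71% of all windows. It was in 7 of 47 windows of the large subunit and 1 of 27 of the small subunit. Motifs of other promoter classes were about as common as in tested genes. CCAAT was found in 40.5% of the windows of the 77 genes and 37.9% of those of tested genes, TATAAA in 6.76% and 6.94%, and CACGTG in 9.46% and 9.99%. Among the genes that differed between genotypes, the ETS core was found in 2 of 8 windows of genes that rose and in 1 of 5 of genes that fell, and the NRF1 core in 3 of 8 and 0 of 5. A match in letters is not a measure of binding. The median GC content was 58.5% over windows of the 77 genes and 60.7% over windows of tested genes.

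In deposited FPKM, levels of the 77 genes spanned a wide range. The ribosomal proteins among them, apart from Mrpl12, are present in single copies in the ribosome. How far the lengths used for FPKM shaped this range was not tested. Mean FPKM over the 4 libraries was between 1.35 for Mrps36 and 69.3 for Mrps16, a small-subunit protein of bacterial family, with a median of 7.54. Mrps36 is not a ribosomal protein, and the lowest of the others was Mrpl47 at 1.94 FPKM. The median was 9.15 FPKM for large-subunit and 4.96 FPKM for small-subunit symbols. Mrps16 had 73.9 ± 12.3 FPKM in Setd2-CD4 cre and 64.7 ± 2.89 FPKM in WT (SD, n = 2 each). Mrps6, also of bacterial family, was second in its subunit at 67.6 ± 6.46 FPKM in Setd2-CD4 cre and 41.9 ± 0.0216 FPKM in WT. In the large subunit the highest were Mrpl34 at 40.2 ± 1.29 FPKM in Setd2-CD4 cre and 45.8 ± 1.75 FPKM in WT, and Mrpl45 at 49.7 ± 4.20 FPKM in Setd2-CD4 cre and 32.4 ± 0.770 FPKM in WT. Mrpl45 had the higher mean of the 2 in Setd2-CD4 cre and Mrpl34 in WT. By FPKM the lowest of the large subunit were Mrpl47 and Mrpl15. Mrpl47 had 1.98 ± 0.290 FPKM in Setd2-CD4 cre and 1.89 ± 0.425 FPKM in WT. Mrpl15 had 2.27 ± 0.466 FPKM in Setd2-CD4 cre and 2.16 ± 0.264 FPKM in WT. The counts of Mrpl15 were not among the lowest, at 362 and 278 in Setd2-CD4 cre and 313 and 369 in WT. For neither gene did the genotypes differ beyond their spread. By FPKM the lowest in the small subunit, after Mrps36, was Mrps17 at 2.20 ± 0.209 FPKM in Setd2-CD4 cre and 2.43 ± 0.0267 FPKM in WT. By counts Mrps17 was not among the lowest, with 358 and 322 in Setd2-CD4 cre and 418 and 421 in WT. Mrps12, with a higher mean of 3.46 FPKM, had 84 and 75 counts in Setd2-CD4 cre and 147 and 96 in WT. The place of Mrps17 thus rests on the length used.

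**Figure D1:**
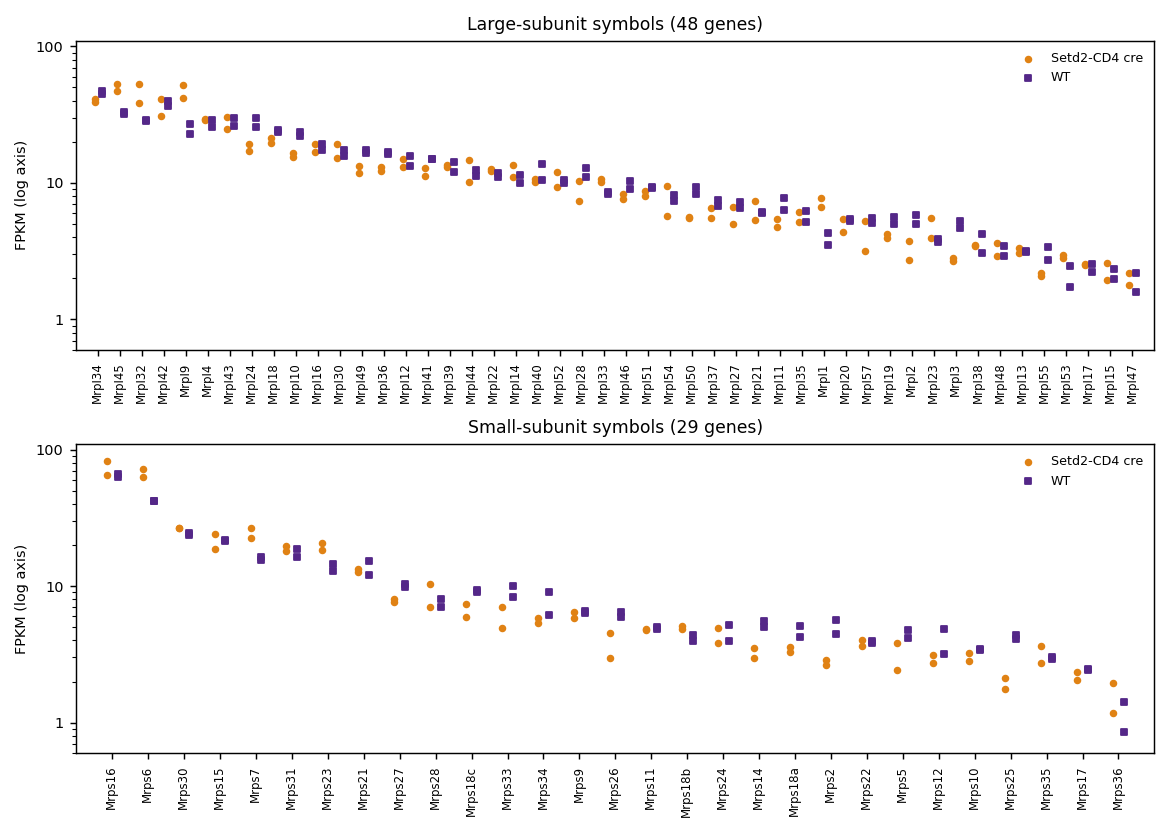
Deposited FPKM on a log axis for the 48 large-subunit and 29 small-subunit symbols, ordered by mean level, with 1 point per library (circles Setd2-CD4 cre, squares WT). Levels ran between 1.35 FPKM for Mrps36 and 69.3 FPKM for Mrps16 on average, and the genotypes overlapped for many of the genes.

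Setd2-CD4 cre cultures had 8 of the 77 genes higher and 5 lower than WT cultures, taking a Benjamini-Hochberg adjusted p of 0.05 in edgeR's quasi-likelihood test as the threshold. The 13 are 16.9% of the 77, whereas 30.7% of the 12927 tested genes passed (16.2% higher and 14.5% lower). The split of tested genes moved with the scaling, to 12.1% higher and 20.2% lower with upper-quartile factors, 10.9% and 22.3% with library totals and 9.80% and 21.2% by limma-trend on FPKM. Under these 3 settings the 77 genes had 8 higher and 7 lower, 7 and 9, and 7 and 11. Among tested genes with a mean of at least 10 CPM the share was 33.5%. In the large subunit 5 rose and 2 fell (14.6% of 48), and in the small subunit 3 rose and 3 fell (20.7% of 29). The rises were led by Mrpl9 and Mrpl1, both proteins of the L1 stalk region, which stood 2.11 and 2.05 times as high, and the largest fall was that of Mrps25, a mitochondrial addition to the small subunit, 1.97-fold lower in Setd2-CD4 cre. Being sums over whole cultures, these values cannot tell fewer cells of a type from less RNA per cell.

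Most of the 77 genes moved little. The fitted difference was under 1.25-fold for 50 of the 77 (64.9%), against 42.5% of tested genes, and 2 of the 77 both passed and reached 2-fold, against 10.5% of tested genes. The 2 libraries of Setd2-CD4 cre both lay above both of WT for 22 genes and below for 19 (53.2% of the 77), against 70.7% of tested genes. Of the 64 genes that did not pass, 58 had a 95% interval of the fold change that lay within 2-fold in either direction. The median log2 fold change was 0.09 over the 77 genes, 0.11 over large-subunit and 0.08 over small-subunit symbols, and -0.01 over tested genes. The sign of the median of the 77 depended on the scaling. It was -0.02 with upper-quartile factors and -0.07 with library totals, which moved the median of tested genes to -0.12 and -0.16, and it was -0.05 without Setd2-CD4 cre 22.

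**Figure D2:**
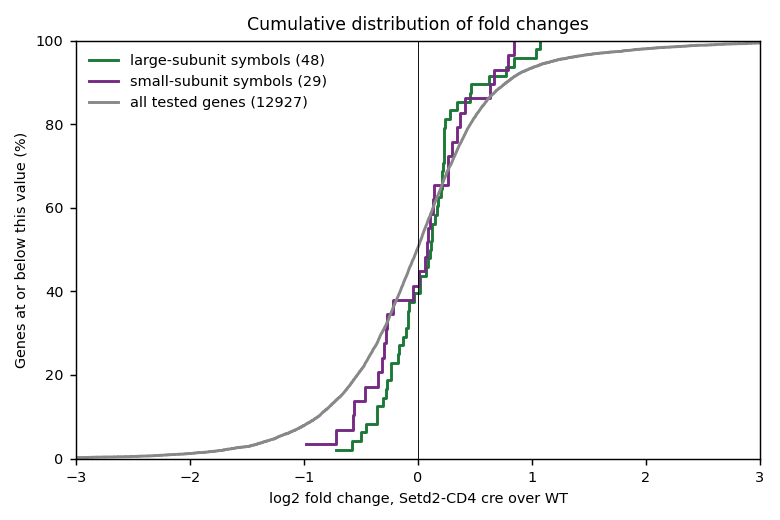
Cumulative share of genes (vertical axis, percent) at or below each log2 fold change of Setd2-CD4 cre over WT (horizontal axis) for large-subunit symbols, small-subunit symbols and all 12927 tested genes. The 2 subunit curves are steeper than that of tested genes, with 64.9% of the 77 genes within 1.25-fold against 42.5% of tested genes.

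Mrpl1 of the L1 stalk, the mobile arm through which spent tRNA leaves the ribosome, and Mrpl9 at its base both rose. Mrpl9 (ENSMUSG00000028140, chromosome 3, 94443318 to 94451130 in GRCm38, plus strand), at the base of the stalk, had 176 and 136 CPM in Setd2-CD4 cre against 81.0 and 67.1 CPM in WT. Both Setd2-CD4 cre libraries were clear of both WT libraries, and the log2 fold change was 1.07 (with an SE of 0.16, edgeR adjusted p = 0.00339). Mrpl1 (ENSMUSG00000029486, chromosome 5, 96209493 to 96266727, plus strand), the stalk protein itself, had 58.0 and 48.5 CPM in Setd2-CD4 cre against 23.7 and 28.4 CPM in WT. Its groups did not overlap either, at 1.03 on the log2 scale (with an SE of 0.16, edgeR adjusted p = 0.00359). The promoter of Mrpl9 holds the NRF1 core printed above, and no motif searched was found in the window of Mrpl1. The RefSeq start of Mrpl1 lies 622 bases from the start of its deposited span.

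Mrpl45 (ENSMUSG00000018882, chromosome 11, 97315716 to 97329920, plus strand), which anchors the ribosome to the inner membrane at the exit of the peptide tunnel, had 155 and 133 CPM in Setd2-CD4 cre against 83.5 and 85.5 CPM in WT. The log2 fold change was 0.77 (with an SE of 0.12, edgeR adjusted p = 0.0037) and the groups were well apart. Mrpl32 (ENSMUSG00000015672, chromosome 13, 14610301 to 14613037, minus strand), a protein that in yeast is cut by the m-AAA protease before it joins the ribosome, had 44.0 and 30.7 CPM in Setd2-CD4 cre against 21.1 and 20.6 CPM in WT. Its Setd2-CD4 cre libraries lay farther apart than its WT libraries (log2 fold change 0.84 with an SE of 0.19, edgeR adjusted p = 0.0145). Mrpl33 (ENSMUSG00000106918, chromosome 5, 31596935 to 31664384, plus strand), a small protein of bacterial family, had 111 and 114 CPM in Setd2-CD4 cre against 83.6 and 80.5 CPM in WT. That was the smallest rise to pass, at 0.45 (with an SE of 0.11, edgeR adjusted p = 0.0172), and it did not pass with library totals or by limma-trend on FPKM. The RefSeq start of Mrpl33 lies 17016 bases inside the span given in the table.

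In the small subunit Mrps6, Mrps7 and Mrps23 rose. Mrps6 (ENSMUSG00000039680, chromosome 16, 92058270 to 92112227, plus strand) had 81.4 and 68.8 CPM in Setd2-CD4 cre against 42.0 and 41.6 CPM in WT (log2 fold change 0.84 with an SE of 0.13, edgeR adjusted p = 0.00375). Its span contains 2 other genes on the same strand that also rose, the inositol transporter gene Slc5a3 (log2 fold change 1.38, 10467 counts over the 4 libraries) and Gm16310 (1.34, 645 counts). The sources used here do not say how shared reads were assigned, so the value of Mrps6 is uncertain. Mrps7 (ENSMUSG00000046756, chromosome 11, 115603925 to 115608036, plus strand), in the head of the subunit, had 67.7 and 55.5 CPM in Setd2-CD4 cre against 35.0 and 36.4 CPM in WT (log2 fold change 0.79 with an SE of 0.14, edgeR adjusted p = 0.00657). It overlaps Gga3 by 127 bases and Mif4gd by 119 bases on the opposite strand, and both of these rose (0.59 and 0.42). Mrps23 (ENSMUSG00000023723, chromosome 11, 88204388 to 88211507, plus strand), a mitochondrial addition, had 49.6 and 43.0 CPM in Setd2-CD4 cre against 31.2 and 27.1 CPM in WT. The groups did not overlap, and the log2 fold change was 0.67 (with an SE of 0.15, edgeR adjusted p = 0.0134).

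**Figure D3:**
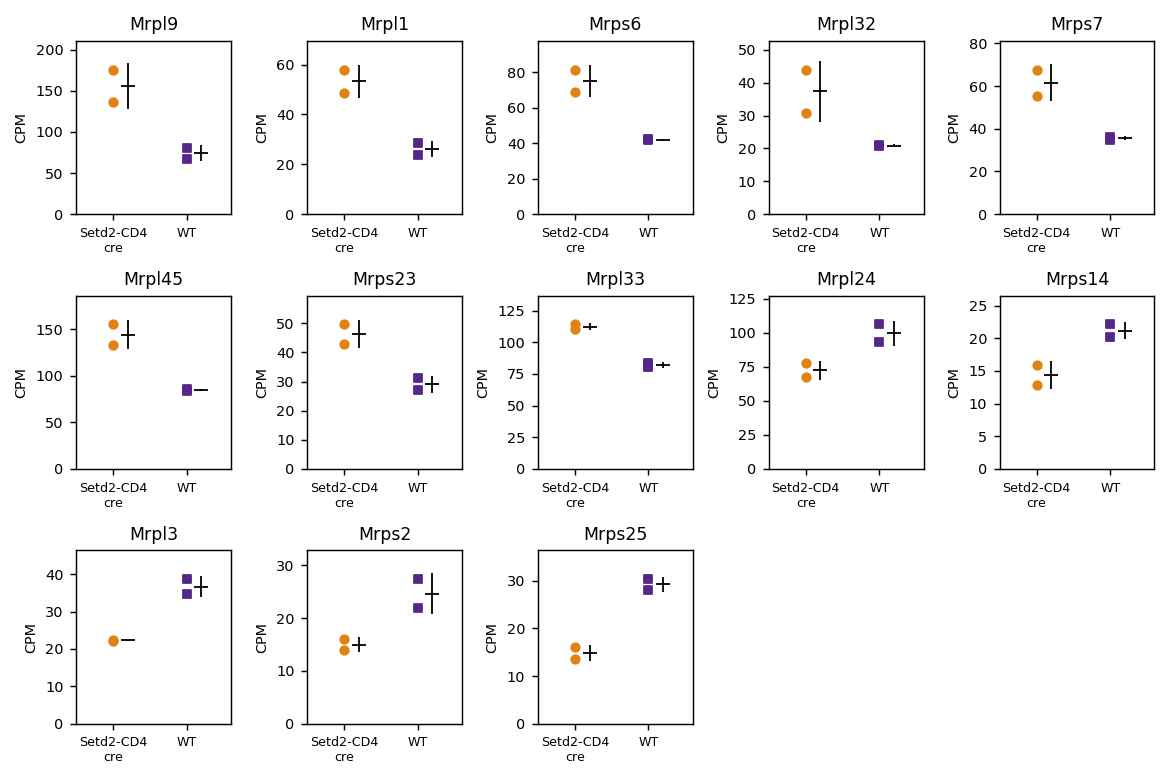
TMM-scaled CPM of the 13 genes that passed, 1 point per library, with Setd2-CD4 cre left of WT in each panel and the mean ± SD (n = 2) beside the points. Mrpl9 shows 176 and 136 CPM in Setd2-CD4 cre against 81.0 and 67.1 CPM in WT, and Mrps25 shows 13.6 and 16.0 CPM in Setd2-CD4 cre against 28.2 and 30.3 CPM in WT.

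Among the genes that fell, Mrps25 (ENSMUSG00000014551, chromosome 6, 92169525 to 92184033, minus strand) had 13.6 and 16.0 CPM in Setd2-CD4 cre against 28.2 and 30.3 CPM in WT (log2 fold change -0.98 with an SE of 0.16, edgeR adjusted p = 0.00445). It overlaps Nr2c2, on the opposite strand, by 4770 bases, and Nr2c2 did not pass (0.02). Mrps2 (ENSMUSG00000035772, chromosome 2, 28468066 to 28471178, plus strand), of bacterial family, had 16.0 and 14.0 CPM in Setd2-CD4 cre against 21.9 and 27.4 CPM in WT. The WT libraries lay farther apart than the others, and the log2 fold change was -0.72 (with an SE of 0.18, edgeR adjusted p = 0.0206). Mrps14 (ENSMUSG00000058267, chromosome 1, 160195215 to 160202170, plus strand), a protein of the head, had 15.9 and 12.9 CPM in Setd2-CD4 cre against 20.3 and 22.1 CPM in WT (log2 fold change -0.56 with an SE of 0.18, edgeR adjusted p = 0.0464). It passed narrowly and did not pass by DESeq2, and with cyclic loess scaling neither Mrps14 nor Mrps2 passed (adjusted p = 0.126 and 0.0549 by limma-voom).

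The large-subunit genes that fell were Mrpl3 and Mrpl24. Mrpl3 (ENSMUSG00000032563, chromosome 9, 105053239 to 105079888, plus strand) encodes a core protein that reaches toward the peptidyl transferase centre, the site where peptide bonds form. It had 22.1 and 22.4 CPM in Setd2-CD4 cre against 34.7 and 38.6 CPM in WT (log2 fold change -0.72 with an SE of 0.14, edgeR adjusted p = 0.00901). Mrpl24 (ENSMUSG00000019710, chromosome 3, 87919506 to 87923672, plus strand), at the rim of the peptide exit tunnel, had 77.6 and 67.4 CPM in Setd2-CD4 cre against 93.0 and 106 CPM in WT. The groups did not overlap for either gene, and the log2 fold change of Mrpl24 was -0.46 (with an SE of 0.13, edgeR adjusted p = 0.0305).

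The stalk that recruits translation factors is built by Mrpl10, Mrpl11 and copies of Mrpl12, and none of the 3 passed. Mrpl10 had -0.36 on the log2 scale (edgeR adjusted p = 0.0719) and Mrpl11 had -0.31 (edgeR adjusted p = 0.227). Mrpl12, which in human cells also binds the mitochondrial RNA polymerase, had 29.6 and 25.4 CPM in Setd2-CD4 cre against 23.4 and 27.8 CPM in WT (0.10, 95% interval -0.27 to 0.47), and its sign turned under 3 of the other scalings. Of 4 core proteins near the peptidyl transferase centre Mrpl3 fell, while Mrpl2 (-0.58, edgeR adjusted p = 0.0918), Mrpl27 (-0.10) and Mrpl16 (0.12) did not pass. Of 5 proteins of the central protuberance, the crest of the large subunit, none passed, and their log2 fold changes lay between -0.13 and 0.20.

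Along the exit tunnel, Mrpl4 (0.24) and Mrpl22 (0.28) of the wall and Mrpl23 (0.47) and Mrpl47 (0.22) of the rim did not pass, beside the fall of Mrpl24 and the rise of Mrpl45. In the head of the small subunit Mrps7 rose and Mrps14 fell, while Mrps9 (0.08) and Mrps10 (-0.05) did not pass. Mrps12 at the decoding centre had 8.17 and 6.87 CPM in Setd2-CD4 cre against 11.2 and 7.30 CPM in WT, with overlapping groups (-0.30, edgeR adjusted p = 0.429). At the mRNA entry channel, Mrps5 (-0.35) and Mrps24 (0.09) did not pass. In the classes used here, 6 of 45 genes of bacterial family rose and 4 fell, and 2 of 30 mitochondrial additions rose and 1 fell. Mrps18a and Mrps18b, relatives of bacterial S18, were counted as additions, so the classes are not a strict split by origin. The shares that passed, 22.2% and 10%, both lie below the 30.7% of tested genes.

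Genes whose symbols and places differ did not pass. Mammals have 3 genes for relatives of bacterial protein S18. Mrps18b had 19.4 and 17.8 CPM in Setd2-CD4 cre against 13.4 and 14.5 CPM in WT (log2 fold change 0.41, edgeR adjusted p = 0.0967), with no overlap between the groups. Mrps18c had 17.1 and 13.3 CPM in Setd2-CD4 cre against 19.3 and 18.5 CPM in WT (-0.31, edgeR adjusted p = 0.227), and Mrps18a, the relative placed in the large subunit, had 20.5 and 18.4 CPM in Setd2-CD4 cre against 21.6 and 25.8 CPM in WT (-0.28, edgeR adjusted p = 0.224). The direction for Mrps18b was opposite to that of the other two, and the difference between the paralogs was not tested. Mrps30 had 45.6 and 44.1 CPM in Setd2-CD4 cre against 36.2 and 36.7 CPM in WT (0.30, edgeR adjusted p = 0.104). Mrps36, the dehydrogenase subunit, was the lowest of the 77 by mean FPKM. It had 57 and 35 counts in Setd2-CD4 cre against 28 and 46 counts in WT. The interval of its log2 fold change, -0.30 to 1.57, leaves its direction undetermined at this depth. Mrpl58, listed as Ict1, the peptidyl-tRNA hydrolase built into the large subunit, had 24.2 and 21.7 CPM in Setd2-CD4 cre against 18.3 and 21.3 CPM in WT (0.21, edgeR adjusted p = 0.339).

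**Figure D4:**
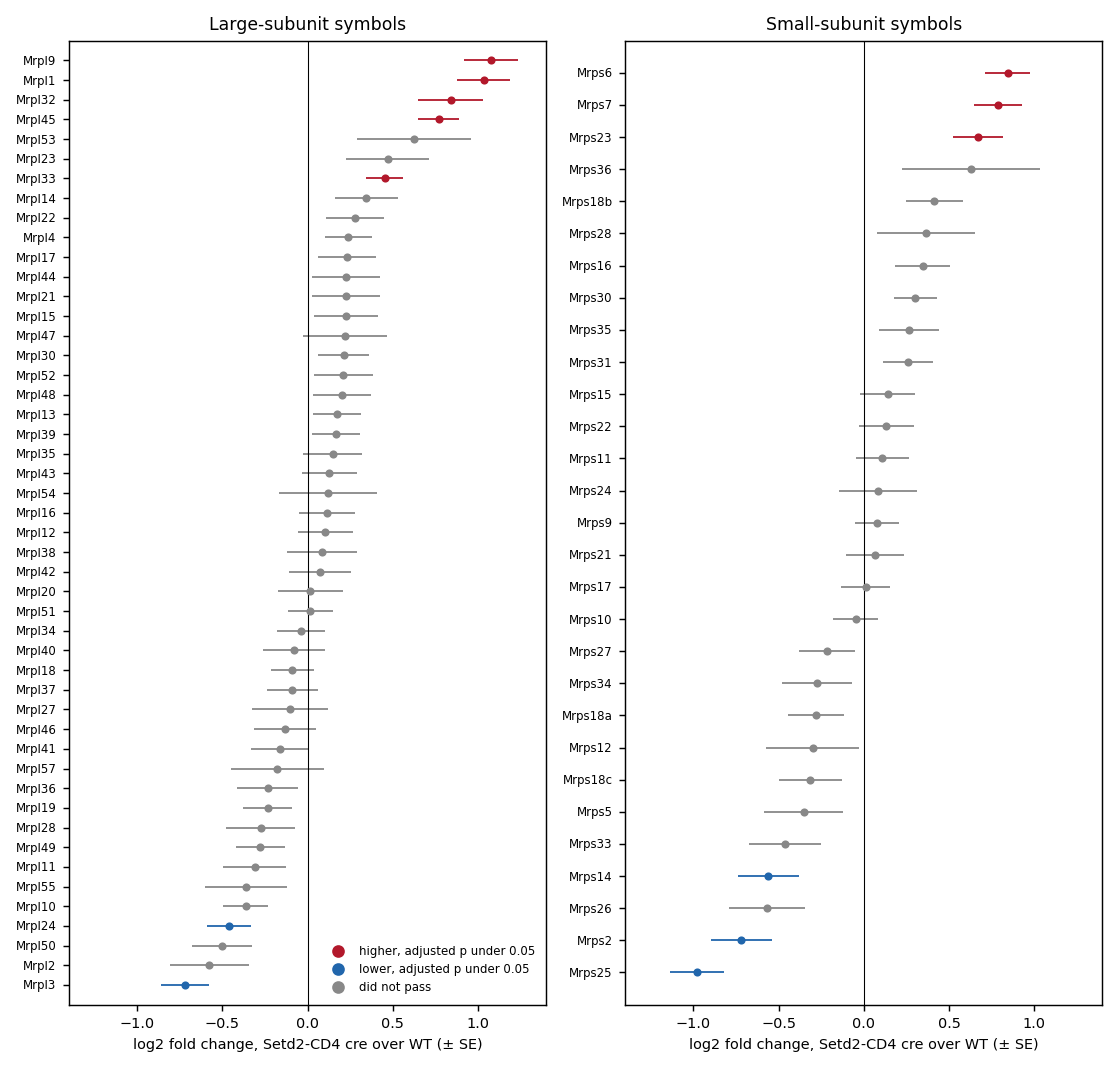
Log2 fold change of Setd2-CD4 cre over WT with its SE for each of the 77 genes, large-subunit symbols on the left and small-subunit symbols on the right, sorted by value (red higher, blue lower, grey did not pass). Values ran between 1.07 for Mrpl9 and -0.98 for Mrps25, and 64 of the 77 genes did not pass.

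The summed level of the 77 genes was 2557 and 2161 CPM in Setd2-CD4 cre against 2098 and 2129 CPM in WT, a ratio of means of 1.12. The groups did not overlap, but Setd2-CD4 cre 24 lay close to WT and Setd2-CD4 cre 22 far above. With library totals in place of TMM factors the ratio was 1.003. Large-subunit symbols summed to 1695 and 1433 CPM in Setd2-CD4 cre against 1355 and 1386 CPM in WT, and small-subunit symbols to 862 and 728 CPM in Setd2-CD4 cre against 743 and 743 CPM in WT. The large-to-small ratio within a library, on which scaling has no bearing, was 1.97 and 1.97 in Setd2-CD4 cre against 1.82 and 1.87 in WT. On the FPKM scale the order was the opposite, 1.73 and 1.75 in Setd2-CD4 cre against 1.88 and 1.89 in WT. The direction of the ratio thus depended on the unit. No test was run on these sums. The smallest exact two-sided permutation p that 2 against 2 libraries allow is 0.333.

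**Figure D5:**
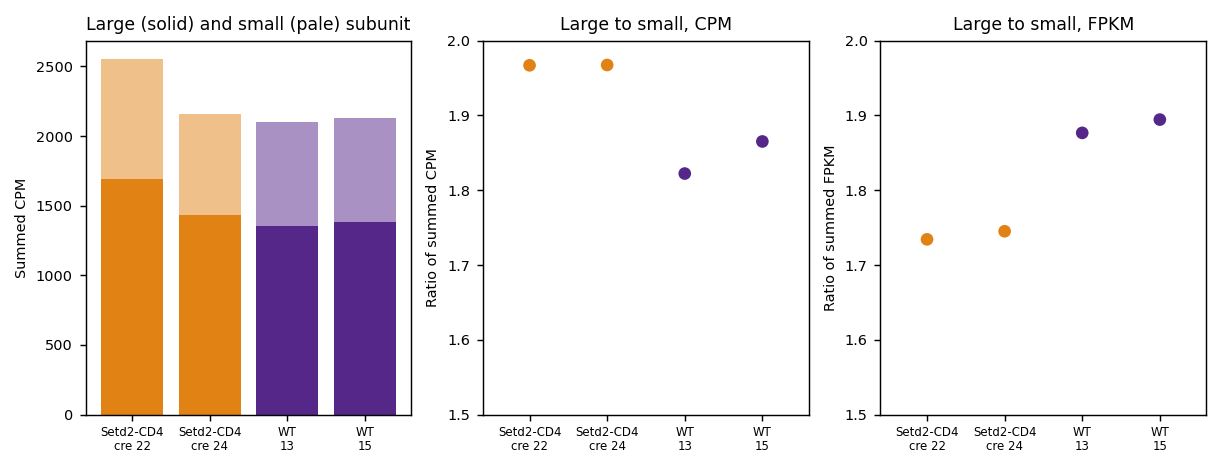
Left, summed TMM-scaled CPM of the 77 genes per library, stacked by subunit (solid large, pale small). Middle and right, the large-to-small ratio of summed CPM and of summed FPKM per library on axes that begin at 1.5. Setd2-CD4 cre libraries had the higher ratio in CPM (1.97 and 1.97 against 1.82 and 1.87 in WT) and the lower ratio in FPKM (1.73 and 1.75 against 1.88 and 1.89 in WT).

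The Setd2-CD4 cre libraries differed from each other across nearly the whole set. Of the 77 genes, 67 (87.0%) were higher in replicate 22 than in replicate 24, against 49.9% of tested genes, whereas 47 (61.0%) were higher in WT 15 than in WT 13. The cytosolic ribosomal protein genes went the same way in 77 of 78 tested genes, and the B cell marker sum was also higher in replicate 22 (732 against 513 CPM in replicate 24). Without replicate 24 the number of the 77 genes that rose was 19 and that fell 4, and without replicate 22 these were 8 and 13. As shares, 24.7% rose and 5.19% fell without replicate 24, against 22.8% and 21.4% of tested genes, and 10.4% rose and 16.9% fell without replicate 22, against 19.6% and 17.2%. Without WT 13 they were 4 and 1, and without WT 15 they were 5 and 0. These last 2 fits also called fewer of all tested genes, 11.04% and 8.54%. In all 10 alternative fits the share of the 77 genes that passed in either direction was below that of tested genes.

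Mrpl9, Mrpl1, Mrpl45 and Mrps6 kept their calls in every fit that left out a library and under every other setting tried. Mrps25 lost its call without WT 15 (edgeR adjusted p = 0.0510) and Mrps7 without WT 13 (edgeR adjusted p = 0.0550). Mrps23, Mrpl32, Mrpl3 and Mrpl24 lost theirs without WT 13 and without WT 15. Mrps2, Mrpl33 and Mrps14 lost theirs there too, and Mrps14 also without Setd2-CD4 cre 24. None of the 13 turned its direction in any of these fits. Every fit used the same deposited read assignment, so the uncertainty over reads that Mrps6 may share with Slc5a3 and Gm16310 remains.

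The 77 genes lie on 17 chromosomes, with 10 on chromosome 11, and 3 of those 10 rose (Mrpl45, Mrps7 and Mrps23). Of all tested genes 16.2% rose, and the share among tested genes of chromosome 11 was not counted. The 77 genes are short, with a median span of 7654 bases against 20426 bases for tested genes. Another protein-coding gene begins on the opposite strand within 1000 bases of the start for 33 of the 77 (42.9%), against 16.9% of 11672 tested protein-coding genes, with all starts from GENCODE M21. With the starts given in the table for the 77 it was 32. Mrps11 and Mrpl46 are such a pair with each other. They share 413 bases, and neither passed (0.11 and -0.13). In all, 40 of the 77 overlap another annotated gene, 34 on the opposite and 13 on the same strand, and these include 8 of the 13 that passed. Reads in overlaps are uncertain because the sources used here do not say whether strand was used.

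Other genes of mitochondrial translation were counted by list, with no test between lists. Of all tested genes 30.7% passed, 16.2% higher and 14.5% lower. Of 6 mitoribosomal proteins named otherwise, 1 rose (16.7%) and none fell, with a median log2 fold change of 0.29. Gadd45gip1, a large-subunit protein, had 35.8 and 25.9 CPM in Setd2-CD4 cre against 20.3 and 20.6 CPM in WT (log2 fold change 0.59, edgeR adjusted p = 0.0416). This call was lost by DESeq2, with upper-quartile factors, with library totals and by limma-trend on FPKM. It was also lost without Setd2-CD4 cre 22 and without either WT library. Dap3, a GTP-binding protein of the small subunit, had 82.0 and 70.3 CPM in Setd2-CD4 cre against 63.4 and 63.4 CPM in WT and did not pass (0.27). Of 27 genes for ribosome assembly and rRNA maturation, 1 rose and 2 fell (11.1% in all), with a median of -0.28. Malsu1, which keeps the new large subunit from joining too early, rose (0.75, edgeR adjusted p = 0.0123). Ybey, an endoribonuclease gene, had 0.973 and 1.47 CPM in Setd2-CD4 cre against 4.80 and 3.96 CPM in WT (-1.83, edgeR adjusted p = 0.0116). Ftsj2, the older symbol of the rRNA methyltransferase gene Mrm2, fell by 1.04 (edgeR adjusted p = 0.0482). The calls of Malsu1, Ybey and Ftsj2 were lost without WT 13 and without WT 15. That of Ftsj2 was also lost by DESeq2, with cyclic loess and without Setd2-CD4 cre 22.

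Of 14 tested translation factor genes none passed by edgeR in the main fit, 2 had an unadjusted p under 0.05, and none passed by DESeq2. None rose under the other scalings, but 1 fell with upper-quartile factors, 2 with library totals and 1 by limma-trend on FPKM. Some also passed when either Setd2-CD4 cre library was left out. Tufm, the elongation factor that brings tRNA to the ribosome, had 32.2 and 31.6 CPM in Setd2-CD4 cre against 29.3 and 33.5 CPM in WT (0.02). The genes that charge mitochondrial tRNAs were split, with 4 of 20 higher and 4 lower and a median of -0.34, and all 8 calls were lost without WT 13 and without WT 15. Of these 20 genes 40% passed in either direction, against 30.7% of tested genes. The glutamyl-tRNA amidotransferase, a complex of 3 proteins that finishes the charging of glutamine tRNA, was split within itself. Its catalytic subunit gene Qrsl1 had 26.6 and 27.3 CPM in Setd2-CD4 cre against 17.1 and 15.1 CPM in WT (0.75, edgeR adjusted p = 0.0107). Gatc had 8.86 and 7.78 CPM in Setd2-CD4 cre against 16.5 and 15.0 CPM in WT (-0.92, edgeR adjusted p = 0.0115), and Gatb had 2.53 and 2.29 CPM in Setd2-CD4 cre against 5.86 and 6.01 CPM in WT (-1.30, edgeR adjusted p = 0.0153). Among the synthetases Tars2, for threonine, rose (0.57).

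Mitochondrial ribosomes translate the mRNAs of mitochondrial DNA. Of 13 mRNAs of mitochondrial DNA none rose and 3 fell (23.1%, against 14.5% of tested genes), with a median of -0.20. Without Setd2-CD4 cre 24, 4 rose and 4 fell, without WT 15 none rose and 1 fell, and with library totals or cyclic loess none rose and 5 fell. mt-Nd5, a subunit of complex I, had 1282 and 1238 CPM in Setd2-CD4 cre against 2769 and 3036 CPM in WT (log2 fold change -1.20 with an SE of 0.14, edgeR adjusted p = 0.00139), a call kept without any single library. mt-Cytb of complex III (-1.05, edgeR adjusted p = 0.00804) and mt-Nd6 (-1.19, edgeR adjusted p = 0.0257) also fell, and both calls were lost without WT 15 and without Setd2-CD4 cre 22. That of mt-Cytb was also lost without Setd2-CD4 cre 24, and that of mt-Nd6 with cyclic loess. mt-Nd6 is encoded on the strand opposite to mt-Nd5, and reads of the 2 strands may have been mixed. The summed level of the 13 was 55764 and 45771 CPM in Setd2-CD4 cre against 46763 and 50143 CPM in WT, with overlapping groups. Cytosolic ribosomal protein genes, by contrast, had 30 of 78 higher (38.5%, against 16.2% of tested genes) and none lower. Their median was 0.49, against 0.09 for the 77 mitochondrial ones. That median stayed positive under each of the 10 alternative fits, between 0.24 and 0.68. The number higher was 14 with upper-quartile factors, 12 with library totals, 9 with cyclic loess and 8 by limma-trend on FPKM. In those fits 12.1%, 10.9%, 14.4% and 9.80% of tested genes were higher. The number was 35 by DESeq2 and 37 with no filter on low counts, against 14.9% and 12.3% of tested genes. It also moved with the library left out.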

How the data were processed

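Libraries were grouped by the genotype in the sample titles, with the title numbers as replicate names. The authors deposited whole-number counts per gene and FPKM, per the file headers, made with Bowtie2, RSEM and a GRCm38.p6 or mm10 reference, per the submitters' processing notes. The sources used here give no versions and do not say how shared or antisense reads were handled.

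The deposited counts went unchanged into edgeR 4.0.16 (R 4.3.3), with TMM factors of 0.934, 0.964, 1.05 and 1.06 for Setd2-CD4 cre 22 and 24 and WT 13 and 15, filterByExpr, robust quasi-likelihood fits and Benjamini-Hochberg adjustment over 12927 genes. The scripts were tested on simulated data. The labels do not say that libraries came from separate animals, so p-values cover only the spread between these samples. Replicates differed beyond counting noise (chi-square per degree of freedom 17.4 in Setd2-CD4 cre and 8.27 in WT). A count of 0 allows up to 3 counts, 0.240 to 0.273 CPM, covering counting error only.

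Genes named are those past the threshold (up to 6 per direction and subunit), the 2 highest and 2 lowest by FPKM in each subunit and some set by role. Others named complete a structural group or came near passing, and were chosen after their values were seen. The 77 genes, the lists and these rules were chosen with earlier results of these data known. Coordinates and classes are from the table and GENCODE M21, and 58 of 77 spans were identical in both. Structural roles come from general knowledge of the ribosome. Other fits used limma 3.58.1 and DESeq2 1.42.0. The motif letters, some of them shortened cores, were set after the data were seen, and so was the check of single genes of the other lists with each library left out. The list of mitochondrial rRNAs matched no row, and the promoter table held no window for 9 of the 77 genes.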

Additional observations from a re-analysis of the deposited data

How the results depend on the processing

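No paired analysis was possible because the genotypes share no replicate number. Of 260 values of named genes under other settings, 219 kept their direction and their side of the threshold, 22 lost a call, 5 gained one and 14 turned sign. The number of the 77 genes that fell, 5, was 9 with library totals, 3 with cyclic loess scaling and 11 by limma-trend on log2(FPKM + 1). For the large subunit, where 2 fell, it was 4 with upper-quartile factors, 5 with library totals and 7 by limma-trend, and for the small subunit, where 3 fell, it was 1 with cyclic loess. The median of tested genes was -0.12 with upper-quartile factors, -0.16 with library totals and -0.12 by limma-trend, and 0.0029 with cyclic loess. Over the 4 lists of other mitochondrial translation genes (6, 27, 14 and 20 tested genes), 6 rose and 6 fell. With library totals 3 were higher, and 12, 17 and 13 were lower with upper-quartile factors, library totals and limma-trend. Of all tested genes 14.5% were lower in the main fit and 20.2%, 22.3% and 21.2% under these 3 settings. The share higher was 16.2% in the main fit and 10.9% with library totals. The difference in the large-to-small ratio, 0.12 in CPM, was -0.15 in FPKM and 0.073 with proteins counted by their place in the ribosome. The cause of these shifts was not tested.

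When each library was left out in turn, 4 to 19 of the 77 genes rose and 0 to 13 fell. The counts in each subunit and in the translation lists also moved with the library left out, as did the share of all tested genes that passed. A fit without 1 library takes the spread from the genotype that still has 2. Small differences turned sign. Mrpl34 (-0.04) was 0.051 with cyclic loess and -0.089 to 0.023 with a library left out. Mrps17 (0.01) was -0.10 with upper-quartile factors, -0.14 with library totals, -0.10 by limma-trend and -0.11 to 0.13 with a library left out. Mrpl12 (0.10) was -0.0091, -0.0503 and -0.044 under the same 3 settings and -0.0153 to 0.23 with a library left out. Mrpl15 (0.22) was -0.0236 to 0.44 and Mrps12 (-0.30) was -0.57 to 0.042 with a library left out. With 2 libraries per genotype, a median SE of 0.17 on the log2 scale limits what could be detected.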

Other observations

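Genes that copy and transcribe mitochondrial DNA also moved both ways, with 4 of 15 higher and 3 lower. Together these were 46.7% of the 15, against 30.7% of tested genes. Polg2, the accessory subunit of the mitochondrial DNA polymerase, had 57.0 and 62.1 CPM in Setd2-CD4 cre against 34.7 and 28.1 CPM in WT (log2 fold change 0.92 with an SE of 0.15, edgeR adjusted p = 0.00415), a call kept without any single library. The catalytic subunit gene Polg (0.58) and Trmt10c, a subunit of mitochondrial RNase P (0.77), rose, and both calls were lost without WT 13 and without WT 15. Top1mt, the mitochondrial topoisomerase gene, had 4.96 and 4.21 CPM in Setd2-CD4 cre against 7.92 and 9.05 CPM in WT (-0.89, edgeR adjusted p = 0.0319). Tfam, which packages mitochondrial DNA and starts its transcription, had 32.2 and 41.7 CPM in Setd2-CD4 cre against 48.2 and 58.0 CPM in WT (-0.52, edgeR adjusted p = 0.0483). The calls of Top1mt and Tfam were lost by DESeq2, with cyclic loess scaling and without either WT library, and that of Tfam also without Setd2-CD4 cre 22.

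Of 11 tested regulators of nuclear genes for mitochondria, 4 rose and 1, Tfam, fell. Together these were 45.5% of the 11, against 30.7% of tested genes. Pprc1, a coactivator related to PGC-1, had 57.9 and 51.1 CPM in Setd2-CD4 cre against 24.4 and 33.2 CPM in WT (0.92 with an SE of 0.17, edgeR adjusted p = 0.00783), a call lost without WT 13. The transcription factor genes Yy1 (0.46), Sp1 (0.45) and Gabpa (0.41) rose. Each lost its call with library totals, with cyclic loess, by limma-trend on FPKM and without either WT library. Gabpa also lost its call with upper-quartile factors. Nrf1 did not pass (0.37, edgeR adjusted p = 0.0769). Myc, a driver of growth in activated T cells, had 37.8 and 17.3 CPM in Setd2-CD4 cre against 30.6 and 44.6 CPM in WT, with overlapping groups.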
